A study of Mus musculus with 36 samples.

Results

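Distal colons of mice dosed with an O-methyl-propanediol-modified siRNA against TNF, the group siTNF-OMe-P, were compared with colons of the Control group. Both groups were taken by their sample titles, 8 siTNF-OMe-P and 9 Control arrays, or 17 of the 36 arrays of the series. The study gave mice dextran sulfate sodium (DSS), which injures the colon lining, and dosed the rectum with scrambled siRNA, unmodified anti-TNF siRNA (siTNF), an O-methyl version (siTNF-OMe) or siTNF-OMe-P. All 36 samples, Control included, carry the label 5% DSS. The design text names the 4 siRNA groups and no Control, so whether the Control animals were given any dose or vehicle, and what other than an siRNA sets them apart, is not settled by the labels. The labels give no strain, sex, age or time. Each sample has its own colon length, weight and myeloperoxidase activity, so the arrays are read here as separate animals, and every difference from Control holds the whole treatment of the siTNF-OMe-P animals and not the sequence or chemistry of the siRNA alone.

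TNF is a cytokine released mainly by activated macrophages and T cells. Through its receptors it switches on NF-kB, which drives chemokines, adhesion molecules and acute phase genes, and antibodies against TNF are used to treat inflammatory bowel disease. An siRNA is a short double-stranded RNA that guides cleavage of the matching messenger RNA, and O-methyl and propanediol groups are placed on such RNAs to slow nuclease attack or to change which strand is used. DSS strips the epithelium, lets bacteria reach the tissue and draws in neutrophils and monocytes, and the colon shortens as it becomes inflamed.

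Expression was read on Affymetrix arrays as log2 intensities of 28853 probe sets, of which 21789 name 1 gene. A probe set is called below when its adjusted p is under 0.05 in the limma fit with group, amplification batch and hybridization batch, and only called genes are said to rise or fall. Values of a gene are log2 intensities of 1 probe set, and differences are siTNF-OMe-P minus Control on the log2 scale, with limma's SE from the fit of all 36 arrays. The epithelial markers Epcam and Car1 were high and did not differ by call. Epcam, an adhesion protein of epithelia, was at a median of 12.2 in siTNF-OMe-P and 12.3 in Control. Car1, a carbonic anhydrase of colonocytes, was at 13.4 and 13.3. Of the other epithelial markers checked, Krt20 was at 12.5 to 12.9 in siTNF-OMe-P and 12.0 to 12.6 in Control. Cdx2 was less bright, at 8.04 to 8.95 and 8.23 to 9.62, and Krt8 and Muc2 are given below. Fabp6, a bile acid carrier of the ileum, was at 7.21, 7.59 and 8.05 (lowest, median, highest) in siTNF-OMe-P and 8.23, 8.60 and 9.55 in Control, without overlap, and fell by 1.21 ± 0.13 on the log2 scale. Lct and Defa24, the other small intestine markers checked, overlapped between the groups. Lct was at 7.03 to 7.80 in siTNF-OMe-P and 6.94 to 8.07 in Control, and Defa24 at 5.22 to 5.53 and 5.20 to 5.50. The arrays differed in the spread of their own values: 4 of 9 Control arrays (replicates 4, 5, 6 and 8) and 2 of 8 siTNF-OMe-P arrays (replicates 2 and 8) had an SD under 1.7, and these are called narrow arrays. A list of 22 squamous epithelium genes had a mean above 8 in siTNF-OMe-P replicates 1, 2 and 5 and in 0 of 9 Control arrays. Fits without the narrow arrays leave out 8 of the 36 arrays, 6 of them in these groups, and fits without the squamous-rich arrays also leave out 8, of which 3 are siTNF-OMe-P and the others siTNF or siTNF-OMe. Of all 19938 genes, 11.7% were called higher and 6.75% lower with every array, 25.2% and 25.1% without the narrow arrays, and 7.31% and 3.65% without the squamous-rich arrays, and a list's counts in each fit are read beside those shares. A value from either fit is given where it ends the call of a named gene, or moves its difference or a list's count or median by over 1.5 times.

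The first question was how inflamed the colons were. They were shorter and heavier for their length in siTNF-OMe-P, and held more myeloperoxidase (MPO), the peroxidase of neutrophil granules. Colon length was 6.00, 6.30 and 7.10 (lowest, median, highest) in siTNF-OMe-P and 7.20, 7.70 and 8.10 in Control. The lengths are labelled in mm, although the labelled ratio equals weight divided by 10 times the length. The groups did not overlap, with all 8 treated colons below all 9 Control colons, and the means, 6.36 ± 0.358 (SD, n = 8) and 7.68 ± 0.273 (SD, n = 9), differed by -1.32 (exact two-sided permutation test, p = 4.11e-05, the smallest that 24310 regroupings allow, adjusted over 4 measures to 1.65e-04).

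MPO activity was 0.815, 0.423, 0.463, 0.391, 0.031, 0.056, 0.082 and 0.477 U/mg in siTNF-OMe-P replicates 1 to 8. In Control it ran from 0.00900 through a median of 0.0380 to 0.0880 U/mg. So 5 of 8 treated animals lay above every Control animal, while replicates 5, 6 and 7 lay within the Control range. The means were 0.342 ± 0.270 U/mg (SD, n = 8) and 0.0380 ± 0.0279 U/mg (SD, n = 9), a difference of 0.304 U/mg (exact permutation p = 0.00165, adjusted 0.00219). Without the 6 narrow arrays the difference was 0.261 U/mg and missed the threshold (exact permutation, adjusted p = 0.127).

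Colon weight was 164 ± 8.77 mg (SD, n = 8) and 167 ± 13.7 mg (SD, n = 9), and the groups overlapped (difference -3.61 mg, exact permutation p = 0.591). The ratio of weight to length, a measure of swelling, was 2.56 ± 0.215 mg/mm (SD, n = 8) and 2.18 ± 0.130 mg/mm (SD, n = 9), with 6 of 8 treated animals above all Control animals (difference 0.381 mg/mm, exact permutation p = 0.00107, adjusted 0.00214). For siTNF-OMe-P replicate 3 the label gives a ratio of 2.62 where weight and length give 2.79, and with recomputed ratios the difference was 0.404 mg/mm. Within hybridization batch 1 the differences of MPO activity, length and ratio were 0.392 U/mg, -1.27 and 0.328 mg/mm, each at an adjusted exact permutation p of 0.0762. With 3 against 4 animals no p under 0.0286 is possible before adjustment, and the lengths, which did not overlap, were at that limit. Within batch 2 they were 0.256 U/mg, -1.32 and 0.397 mg/mm, each at 0.0212 by the same test.

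**Figure D1:**
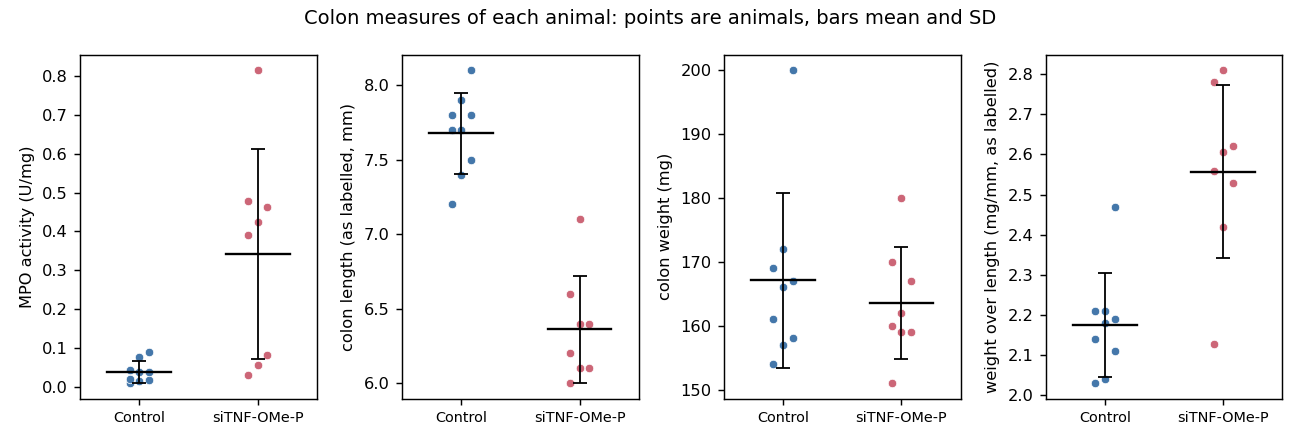
MPO activity (U/mg), colon length (as labelled, mm), weight (mg) and their ratio (mg/mm) of each Control and siTNF-OMe-P animal, with bars for mean and SD. All 8 treated lengths lie below all 9 Control lengths, while 3 treated animals lie among the Control animals in MPO activity.

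The second question was whether the targeted transcript was lower. Tnf was higher than in Control, not lower. Its values in siTNF-OMe-P replicates 1 to 8 were 8.94, 8.86, 8.70, 8.42, 8.52, 8.86, 8.48 and 8.70, against 7.60, 7.91 and 8.67 (lowest, median, highest) in Control. The groups overlapped through Control replicate 4, a narrow array at 8.67, and 5 of 8 treated arrays lay above all Control arrays. The difference was 0.74 ± 0.14, or 1.66-fold (limma, adjusted p = 2.54e-04), and 0.81 without that Control array. It was 0.71 and 0.77 within hybridization batches 1 and 2 (limma, adjusted p = 0.139 and 0.0132), and 1.05, 0.62 and 0.74 within amplification batches 1, 2 and 3 (limma, adjusted p = 0.00898, 0.0945 and 0.357). The RNA came from whole tissue, so for every gene here more cells of a type and more RNA per cell cannot be told apart.

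Both TNF receptors rose. Tnfrsf1a, the receptor found on most cells, was at 10.9 to 11.6 in siTNF-OMe-P and 8.82 to 10.6 in Control, with no overlap, and differed by 1.31 ± 0.18, or 0.85 without the narrow arrays. Tnfrsf1b, the receptor of leukocytes and endothelium, was at 9.68 to 10.5 and 8.90 to 9.29, again with no overlap, and differed by 1.10 ± 0.13. Of the 23 measured genes of TNF ligands, receptors and signalling, 10 rose and 0 fell (limma), beside 11.7% and 6.75% of all 19938 genes, with a median of 0.22 against -0.015 over all genes. Without the narrow arrays the count was 8 higher and 3 lower, beside 25.2% and 25.1% of all genes, with a median of 0.025. The adapter Traf5 rose by 0.35 ± 0.055 with no overlap.

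Genes that TNF and NF-kB are known to switch on rose in 17 of 27 cases and fell in 0 (limma; median 0.44), with 12 higher and 1 lower without the narrow arrays and 13 higher without the squamous-rich arrays. Socs3, a feedback inhibitor of cytokine receptors, was at 9.17 to 10.9 in siTNF-OMe-P against 8.19 to 9.01 in Control (1.78 ± 0.25). Vcam1, the endothelial adhesion molecule that holds monocytes and lymphocytes, was at 10.0 to 11.2 against 8.60 to 9.21 (1.64 ± 0.15). Ier3, an immediate early survival gene, was at 8.74 to 9.83 against 7.05 to 8.54 (1.60 ± 0.24), with a difference of 1.06 without the narrow arrays. These 3, taken by their smallest p, did not overlap between the groups, and over the whole list 5 of 27 genes did not, beside 4.06% of all genes in either direction and 3.11% upward. The level of the list differed among the treated arrays, from 0.19 above the Control mean in replicate 7 to 0.84 above it in replicate 3.

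Across the array, 4596 of 28853 probe sets were called (limma), 15.9%, of which 2698 (9.35%) were higher and 1898 (6.58%) lower in siTNF-OMe-P. A shift of at least 1 on the log2 scale was seen in 423 of them, 278 higher and 145 lower. The count rested on which arrays entered. It was 13845 without the narrow arrays, with 3813 of the 4596 still called, and 2637 without the arrays rich in squamous genes, with 2563 still called. The direction was the same for 4595 and for all 4596 of them.

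The largest rises among called genes were of epithelial, acute phase and myeloid genes. Clca4b, a chloride channel regulator of surface colonocytes, was at 11.8, 12.5 and 12.8 (lowest, median, highest) in siTNF-OMe-P and 6.96, 7.75 and 8.94 in Control. The gap between the groups was wide, and the difference was 4.51 ± 0.21 (limma, adjusted p = 3.66e-16). Clca4b has close copies in the genome, and Clca4a, one of them, rose by 1.26 ± 0.20, and reads of one by probes of the other were not tested. Ccl8, a chemokine that attracts monocytes, was at 9.25, 10.3 and 10.7 against 6.45, 6.68 and 6.92 (3.50 ± 0.18; limma, adjusted p = 2.01e-15). The groups stood far apart for Ccl8 as well.

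Saa3, the serum amyloid A made in inflamed tissue, was at 8.64, 11.4 and 12.6 in siTNF-OMe-P and 7.15, 7.69 and 8.03 in Control (3.14 ± 0.44). Its treated arrays were uneven, with replicates 2 and 7 at 8.64 and 8.71 and the other 6 at 9.75 or above. Lcn2, a siderophore-binding protein of neutrophils and stressed epithelium, was at 9.82, 10.7 and 12.2 against 7.65, 7.93 and 8.14 (2.83 ± 0.30). Serpina3n, an acute phase protease inhibitor, rose by 2.64 ± 0.18, Hp, the haemoglobin carrier haptoglobin, by 2.63 ± 0.36, and Wfdc17, a small WAP-domain protein of activated macrophages, by 2.73 ± 0.13, all 3 with no overlap. Tac1, the precursor of the neuropeptide substance P, was at 11.3, 12.0 and 12.3 against 7.21, 9.19 and 10.2 (2.86 ± 0.27), also with no overlap.

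The largest falls were mostly of epithelial genes. Reg4, a lectin of secretory cells at the crypt base, was at 9.18, 9.54 and 9.82 in siTNF-OMe-P and 12.3, 12.9 and 13.1 in Control. The groups stood far apart, and Reg4 fell by 3.28 ± 0.13 on the log2 scale (limma, adjusted p = 2.13e-18). Nxpe2, a gene of the colon epithelium, was at 7.56, 7.70 and 7.84 against 9.52, 10.6 and 11.3 (-2.70 ± 0.15). Cldn2, a claudin that forms cation pores between crypt cells, was at 7.36, 7.63 and 7.91 against 9.29, 10.0 and 10.4 (-2.27 ± 0.13). Treated arrays were tight for these 3 genes, each within a range of less than 1 log2 unit, and none reached the lowest Control array.

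Cftr, the chloride channel of crypt cells, was at 6.77, 7.17 and 7.40 in siTNF-OMe-P and 8.11, 9.48 and 10.1 in Control (-2.15 ± 0.21). Nox1, the superoxide-forming oxidase of colonocytes, fell by 1.89 ± 0.16 on the log2 scale, and Myb, a transcription factor of crypt progenitors, by 1.81 ± 0.16. Dio1, which activates thyroid hormone, differed by -2.16 ± 0.29, Rnf186, a ubiquitin ligase of the gut epithelium, by -1.97 ± 0.28, Aadac, an esterase, by -1.81 ± 0.21, and Smpx, a small muscle protein, by -2.29 ± 0.21. None of the 10 genes with the lowest differences overlapped between the groups, beside 0.943% of all genes in that direction. The 10 genes at either end were picked by the size of their difference, so their gaps describe the extremes of the comparison.

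**Figure D2:**
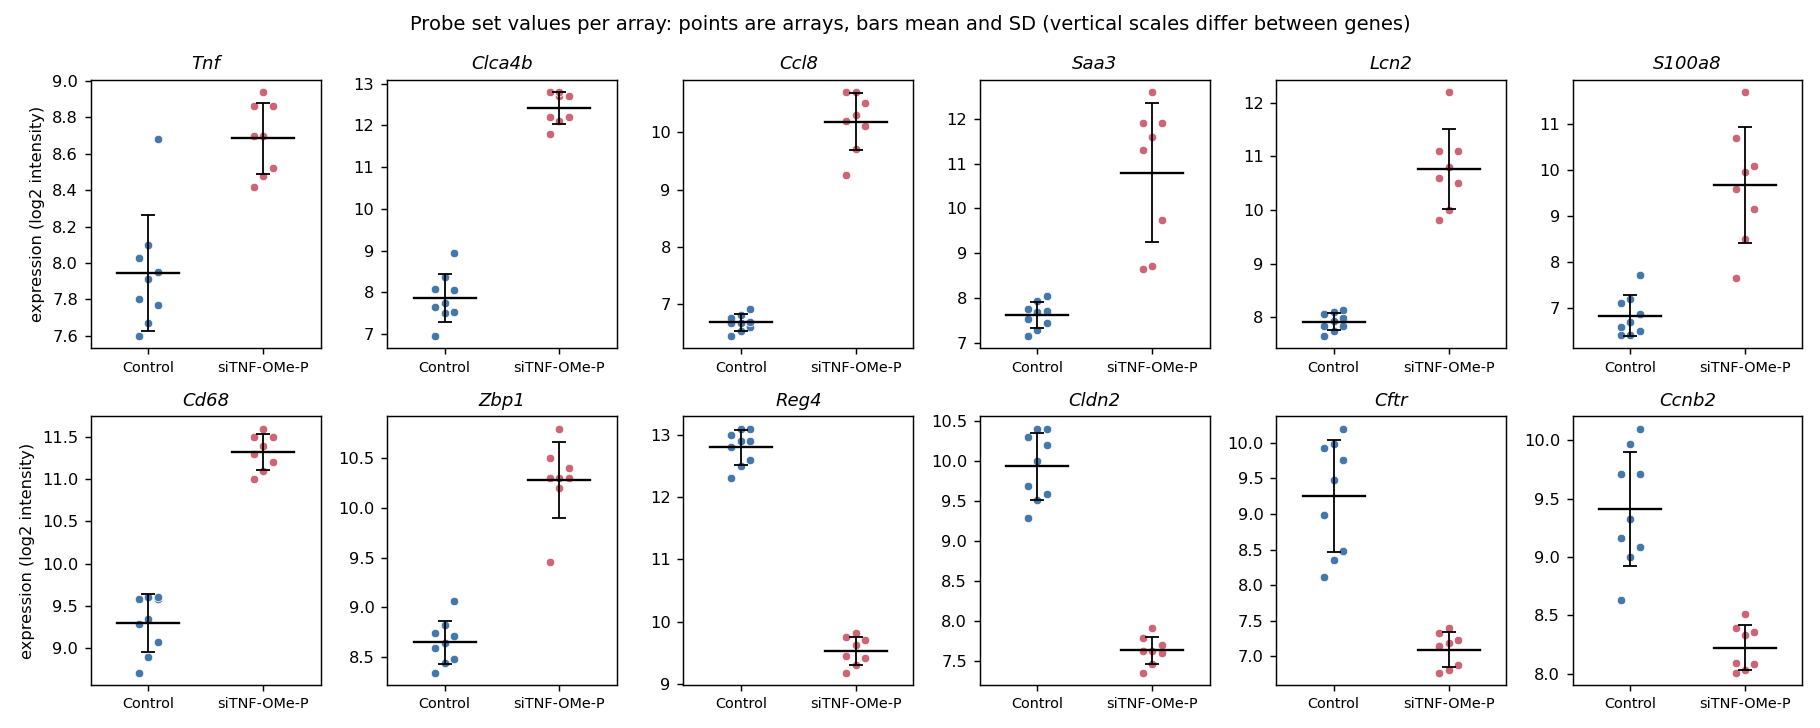
Log2 intensity of 12 genes in each Control and siTNF-OMe-P array, with bars for mean and SD and a vertical scale of its own for each gene. The groups do not overlap for Clca4b, Ccl8, Saa3, Lcn2, Cd68, Zbp1, Reg4, Cldn2, Cftr and Ccnb2, and they overlap for Tnf and S100a8, in both through Control replicate 4.

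Genes of immune cells, of support tissue and of the epithelium were next described by 34 lists, which hold 698 measured genes. Of these, 282 rose and 82 fell (limma), beside 11.7% and 6.75% of all 19938 genes. The lists were chosen with earlier results of these data known, so this count also depends on how they were picked. The plot of called shares by list shows monocyte and macrophage genes at one end and cell cycle genes at the other.

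**Figure D3:**
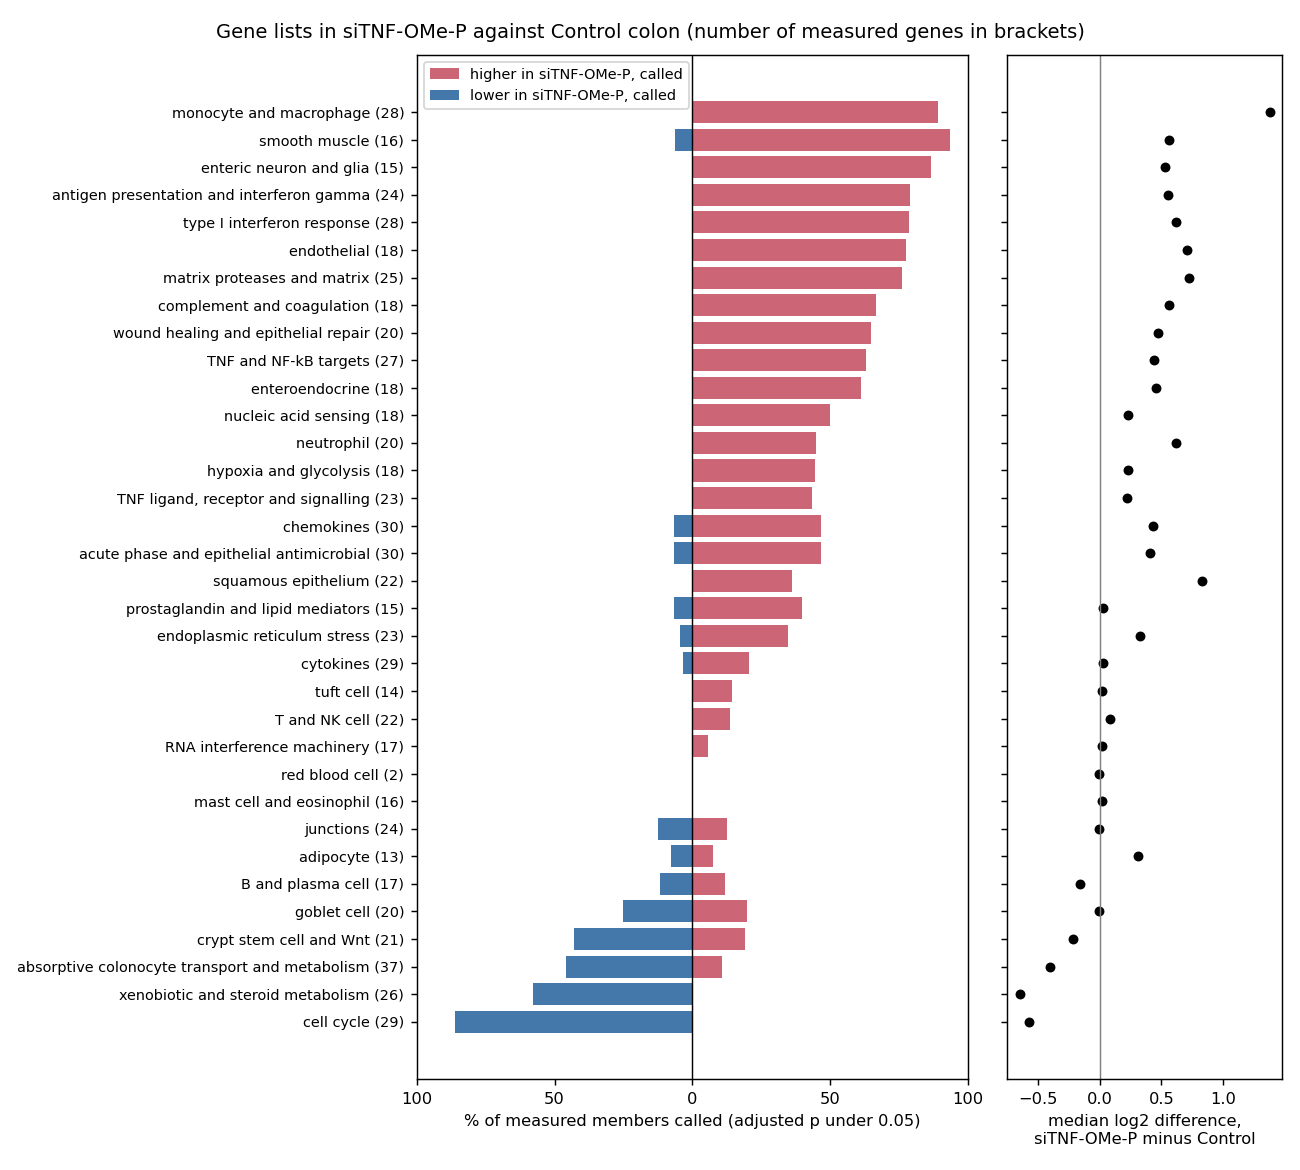
For each of 34 gene lists, the percentage of measured members called higher (right bars) or lower (left bars) in siTNF-OMe-P than in Control, and the median log2 difference (right panel). Among monocyte and macrophage genes 25 of 28 were higher, and among cell cycle genes 25 of 29 were lower.

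Monocyte and macrophage genes rose in 25 of 28 cases and fell in 0 by limma, with a median of 1.38. Of the 28, 20 did not overlap between the groups, beside 4.06% of all genes in either direction and 3.11% upward. Cd68, a lysosomal protein of macrophages, was at 11, 11.4 and 11.6 in siTNF-OMe-P and 8.71, 9.35 and 9.61 in Control (2.02 ± 0.12). Gpnmb, a glycoprotein of lipid-laden macrophages, was at 10.1, 10.8 and 11.2 against 7.91, 8.22 and 8.50 (2.47 ± 0.14). Ms4a6d, a membrane protein of myeloid cells, was at 10.0, 10.8 and 11.6 against 7.90, 8.42 and 8.54 (2.42 ± 0.17). All 3 were clear of Control in every treated array. The count was 25 higher also without the narrow arrays and without the squamous-rich arrays. Ptprc, the common leukocyte antigen, rose by 0.65 ± 0.17, with overlap.

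Neutrophil genes rose in 9 of 20 cases and fell in 0 (limma; median 0.62), and in 15 of 20 without the narrow arrays. S100a8 and S100a9 are the calcium-binding pair that makes calprotectin. S100a8 was at 7.66, 9.77 and 11.7 in siTNF-OMe-P and 6.42, 6.70 and 7.73 in Control (2.81 ± 0.44), and 7 of 8 treated arrays were above all Control arrays. S100a9 was at 8.60, 10.4 and 12.1 against 7.29, 7.72 and 8.28 (2.48 ± 0.38), with no overlap. Ly6g, a surface antigen of neutrophils and one of a family of similar genes, rose by 0.88 ± 0.090 with no overlap. Unlike S100a8 and S100a9 it was already bright in Control, at 11.6 to 12.4. Signal from the similar genes in its probe set was not tested, so its rise cannot be assigned to neutrophils.

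The transcript of Mpo itself was not called. It was at 6.79, 6.99 and 7.30 in siTNF-OMe-P and 6.63, 6.96 and 7.71 in Control (-0.0033 ± 0.11; limma, adjusted p = 0.994), next to the higher MPO activity of the same colons. Mpo is transcribed in bone marrow precursors, and mature neutrophils carry the stored protein. This gene was chosen after its values were seen.

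Of 22 T and NK cell genes 3 rose and 0 fell (limma; median 0.079), a share near the 11.7% of all genes: Thy1, a surface glycoprotein shared by T cells and stromal cells, by 0.99 ± 0.13, the co-receptor Cd4, also found on macrophages, by 0.90 ± 0.10, and the NK receptor Klrd1 by 0.24 ± 0.072. Without the narrow arrays 15 of 22 were higher (median 0.26), beside 25.2% of all genes. Of 16 mast cell and eosinophil genes 0 were called by limma, with differences from -0.27 to 0.35. Without the narrow arrays 12 were higher and 1 lower (median 0.26), and without Control replicate 8 alone 3 were higher. Of 17 B and plasma cell genes 2 rose and 2 fell (limma; median -0.16), the rises at a share near the 11.7% of all genes, and without the squamous-rich arrays 0 were lower. Xbp1, a transcription factor of secretory cells including plasma cells, rose by 0.63 ± 0.12, and Prdm1, a regulator of plasma cells, by 0.54 ± 0.13. The B cell genes Cr2 and Ms4a1 were both lower by call, by -0.34 ± 0.11 and -0.34 ± 0.12. Neither Cr2 nor Ms4a1 was called without siTNF-OMe-P replicate 1 (-0.28 for both), 3 (-0.30 for both), 5 (-0.34 for both) or 7 (-0.31 and -0.32), and both calls also depended on Control replicates 1 and 6 (-0.24 and -0.33 for Cr2, -0.26 and -0.30 for Ms4a1). The Cr2 call was lost without Control replicate 3 as well (-0.34), and the Ms4a1 call without Control replicate 5 or 8 (-0.35 and -0.30) or siTNF-OMe-P replicate 2 (-0.32). Without the squamous-rich arrays Cr2 was at -0.27 and Ms4a1 at -0.22, neither called (limma, adjusted p = 0.315 and 0.464), and both calls were lost when only both groups entered the fit (-0.35 for both). Cr2 was also not called with quantile normalization (-0.30), nor Ms4a1 without the narrow arrays (-0.26) or with array weights (-0.25).

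Chemokines rose in 14 of 30 cases and fell in 2 (limma; median 0.43), and without the narrow arrays the median was 0.76. Beside Ccl8, Cxcl16, a scavenger receptor and chemokine of macrophages, was at 9.85 to 10.4 in siTNF-OMe-P against 8.28 to 9.49 in Control (1.16 ± 0.12). Cxcl12, the stromal chemokine that retains leukocytes, rose by 1.00 ± 0.13, and like Cxcl16 did not overlap. The 2 that fell are chemokines of mucosal epithelium that attract plasma cells and T cells: Ccl28 differed by -0.64 ± 0.20 and Ccl25 by -0.32 ± 0.067. Ccl28 lost its call without siTNF-OMe-P replicate 8 (-0.53) and without the squamous-rich arrays (-0.54), and Ccl25 was at -0.21 without the narrow arrays. A further Ccl25 probe set was at -0.19 (limma, adjusted p = 0.0511).

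Of 29 cytokines 6 rose and 1 fell (limma; median 0.025), beside 11.7% and 6.75% of all genes, with 3 higher and 0 lower without the squamous-rich arrays and a median of 0.18 without the narrow arrays. Il1b, the inflammasome cytokine, was at 8.34, 9.49 and 10.8 in siTNF-OMe-P and 7.57, 7.94 and 8.63 in Control (1.56 ± 0.34). Only replicate 7 of the treated arrays lay within the Control range for Il1b. Its antagonist Il1rn rose by 0.38 ± 0.096, and was at 0.15 without the narrow arrays, where it was not called. Tgfb1, a cytokine of repair and fibrosis, rose by 0.67 ± 0.095. Il15, a cytokine that sustains intraepithelial lymphocytes, fell by 1.15 ± 0.26 on the log2 scale and was at -0.85, not called, without the squamous-rich arrays. Il6 was at 5.66, 5.88 and 7.93 against 5.45, 5.55 and 5.84 (0.76 ± 0.40; limma, adjusted p = 0.249).

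Acute phase and epithelial antimicrobial genes rose in 14 of 30 cases and fell in 2, which were Reg4 and Nox1 (limma; median 0.41), and 13 of the 30 did not overlap, beside 4.06% of all genes in either direction. Slpi, a protease inhibitor of mucosal secretions, was at 10.8, 11 and 11.2 in siTNF-OMe-P and 9.21, 9.46 and 10.3 in Control (1.41 ± 0.10). Every treated array was above every Control array for Slpi, Wfdc17 and Serpina3n.

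Genes induced by interferon rose. Type I interferons act through a factor that binds the interferon-stimulated response element, taken here as GAAA, any 2 bases and GAAA again, and searched on both strands of the 200 bases before the annotated start (RefSeq, GRCm38.p6). The motif was found in 7 of the 19 genes of the list that had a promoter in the table, 36.8%, against 2.27% of all 32851 promoters and 2.65% of all genes. The promoters of Bst2, Ifit3 and Ifit1 are shown because each carries it more than once. Capitals mark the matches on either strand, which overlap in Bst2.
Bst2 (chr8:71537473-71537672, minus strand): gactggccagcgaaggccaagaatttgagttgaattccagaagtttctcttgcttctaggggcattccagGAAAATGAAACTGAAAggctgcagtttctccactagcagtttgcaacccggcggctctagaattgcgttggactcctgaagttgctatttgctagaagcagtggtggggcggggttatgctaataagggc
Ifit3 (chr19:34583329-34583528, plus strand): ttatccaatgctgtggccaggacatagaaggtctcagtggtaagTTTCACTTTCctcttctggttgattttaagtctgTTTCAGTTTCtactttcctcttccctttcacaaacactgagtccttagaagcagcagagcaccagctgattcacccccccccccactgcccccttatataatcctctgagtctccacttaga
Ifit1 (chr19:34640689-34640888, plus strand): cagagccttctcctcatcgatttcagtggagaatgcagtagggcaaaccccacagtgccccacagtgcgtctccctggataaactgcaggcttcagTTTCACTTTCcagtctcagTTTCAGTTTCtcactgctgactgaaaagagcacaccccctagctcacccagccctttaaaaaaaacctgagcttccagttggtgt

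Of 28 type I interferon response genes 22 rose and 0 fell by limma, with a median of 0.62. Of the 28, 11 did not overlap, beside 4.06% of all genes in either direction. Zbp1, which senses Z-form RNA and DNA and can start necroptosis, was at 9.46, 10.3 and 10.8 in siTNF-OMe-P and 8.34, 8.64 and 9.06 in Control (1.63 ± 0.19). Rtp4, an interferon-induced chaperone, was at 10.1, 11.1 and 11.3 against 8.88, 9.83 and 9.99 (1.31 ± 0.18). Replicate 2 was the lowest treated array for both genes and still above all Control arrays. Bst2, which tethers viral particles to the cell, rose by 1.07 ± 0.14, Ifit1, which binds foreign RNA ends, by 1.53 ± 0.26, and Ifit3, its partner, by 0.92 ± 0.13. Those that carry the motif were called in 7 of 7 cases, beside 16 of the 19 with a promoter in the table. The motif count is a description of these letters and says nothing of binding.

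Antigen presentation and interferon gamma genes rose in 19 of 24 cases and fell in 0 (limma; median 0.55), with 17 higher and a median of 0.35 without the narrow arrays. B2m, which pairs with class I heavy chains at the cell surface, was at 12.5 to 12.8 in siTNF-OMe-P and 11.5 to 12.2 in Control (0.64 ± 0.083), with no overlap. Psmb8, a subunit of the immunoproteasome that trims peptides for class I, was at 11.5 to 12.1 against 9.80 to 11.3 (1.13 ± 0.17), with no overlap. Iigp1, an interferon-induced GTPase, was at 8.80, 10.5 and 11.5 against 7.82, 8.27 and 9.68 (2.06 ± 0.36). Control replicate 2, at 9.68, made the groups overlap for Iigp1, and 7 of 8 treated arrays were above it.

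Genes of nucleic acid sensing, a list of RNA and DNA sensors with their adapters, kinases and transcription factors, rose in 9 of 18 cases. None fell by limma, and the median was 0.23. Without the narrow arrays 7 were higher and 4 lower (median 0.11), beside 25.2% and 25.1% of all genes. Beside Zbp1, Irf7, the factor that amplifies interferon production, rose by 1.23 ± 0.19 and Myd88, the adapter of most Toll-like receptors, by 1.00 ± 0.17, both with no overlap, and Myd88 was at 0.56 without the narrow arrays. Of 17 genes of the RNA interference machinery itself 1 rose and 0 fell (limma; median 0.015). That gene, Sidt2, a lysosomal RNA transporter, differed by 0.35 ± 0.12 with overlap, and its value was 0.073 without the narrow arrays and 0.30 without the squamous-rich arrays, not called in either case. Nor was it called when only both groups entered the fit (0.35), with median centring (0.35) or with array weights (0.15). The Sidt2 call was also lost without any 1 of Control replicates 4, 5, 6 or 8 (0.28 to 0.34) or siTNF-OMe-P replicates 1 to 5 (0.33 to 0.34). Ago2, the nuclease that cuts siRNA targets, was at 10.3, 10.6 and 10.8 in siTNF-OMe-P and 10.2, 10.4 and 10.8 in Control (0.17 ± 0.068; limma, adjusted p = 0.0967). Without the narrow arrays the list had 0 higher and 7 lower (median -0.18), beside 25.1% of all genes lower.

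Among epithelial genes, those of absorptive colonocytes fell in 17 of 37 cases and rose in 4 (limma; median -0.40). Without the squamous-rich arrays the counts were 10 lower and 3 higher. Beside Nxpe2 and Cftr, Kcnn4, a potassium channel that drives chloride secretion, was at 8.34, 8.64 and 8.95 in siTNF-OMe-P and 9.25, 9.96 and 10.4 in Control (-1.24 ± 0.12), with no overlap. Aqp8, a water channel of surface cells, was at 9.50, 10.1 and 10.7 against 10.9, 11.6 and 11.8 (-1.29 ± 0.21). The rises in this list were led by Clca4b and Clca4a, with Ceacam20, an adhesion protein of the brush border, at 0.34 ± 0.095, a call lost with median centring (0.34). Aqp8 is outside the rule for named genes and was chosen after its values were seen, as were Il6, Ago2, Atoh1, Top2a, Lgr5, Ereg and Ptgs2.

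Genes of xenobiotic and steroid metabolism fell in 15 of 26 cases and rose in 0 (limma; median -0.65). Sult1a1, a sulfotransferase, was at 8.46, 9.04 and 9.56 in siTNF-OMe-P and 10.2, 10.8 and 11 in Control (-1.66 ± 0.16). Acer1, an alkaline ceramidase, was at 8.15, 8.54 and 8.96 against 9.58, 10.3 and 10.7 (-1.70 ± 0.18). Cyp2d26, a cytochrome P450 of a family of similar genes, fell by 1.11 ± 0.11 on the log2 scale. None of the 3 overlapped.

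Goblet cell genes split, with 4 higher and 5 lower of 20 by limma and a median of -0.010. Without the narrow arrays 6 were higher and 8 lower, beside 25.2% and 25.1% of all genes. Best2, a bicarbonate channel of goblet cells, was at 7.85, 8.49 and 9.38 in siTNF-OMe-P and 9.10, 10.2 and 10.7 in Control (-1.55 ± 0.26). Atoh1, the factor that commits cells to the secretory fate, differed by -1.22 ± 0.26, Creb3l1, a factor of the secretory pathway, by -1.01 ± 0.16, and Ern2, a stress sensor of mucus-making cells, by -0.79 ± 0.14. Retnlb, an antibacterial protein of goblet cells, was at 6.62, 7.73 and 9.26 against 6.04, 6.23 and 6.44 (1.64 ± 0.36), with no overlap. The transmembrane mucin Muc13 rose by 0.44 ± 0.074 and the secreted inhibitor Spink4 by 0.32 ± 0.053. Muc2, the mucin that forms the mucus gel, was at a median of 12.5 and 12.3 (0.21 ± 0.079; limma, adjusted p = 0.0719).

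Enteroendocrine genes rose in 11 of 18 cases and fell in 0 by limma, with a median of 0.46. Of the 18, 8 did not overlap, beside 4.06% of all genes in either direction. Gcg, the precursor of glucagon-like peptides, was at 10.7, 11.2 and 11.5 in siTNF-OMe-P and 9.06, 9.62 and 10.2 in Control (1.55 ± 0.17). Sst, the inhibitory hormone somatostatin, was at 9.97, 10.3 and 10.5 against 8.58, 9.13 and 9.78 (1.06 ± 0.13). Tac1 is also in this list and is made by enteric neurons as well. Of 14 tuft cell genes 2 rose and 0 fell (limma; median 0.019), a share near the 11.7% of all genes: Hpgds, a prostaglandin synthase, by 0.36 ± 0.11 and Dclk1, a kinase that marks these cells, by 0.24 ± 0.082. The Hpgds call was lost when only both groups entered the fit (0.37) and with median centring (0.36). The Dclk1 call was lost, at 0.20 to 0.25, without any 1 of Control replicates 1 to 5, 7 or 9 or siTNF-OMe-P replicates 3 or 5 to 8. Dclk1 was not called either with the replicate block (0.22), with only both groups in the fit (0.23), with quantile normalization (0.18), with median centring (0.23) or without the squamous-rich arrays (0.28). Of the 14, 6 were higher without the narrow arrays (median 0.16), beside 25.2% of all genes.

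Junction genes had 3 higher and 3 lower of 24 (limma; median -0.0043), the rises at a share near the 11.7% of all genes. Without the narrow arrays 1 was higher and 10 were lower (median -0.21), beside 25.2% and 25.1% of all genes, and without the squamous-rich arrays 1 was higher and 2 were lower. Beside the fall of Cldn2, Cldn8, a claudin that seals the distal colon, rose by 0.97 ± 0.19 and Cldn15, another cation-pore claudin, fell by 0.59 ± 0.11 on the log2 scale. Cldn1 was at 0.62 ± 0.18, and at 0.50 and 0.45, not called, without siTNF-OMe-P replicate 1 and without the squamous-rich arrays. Cldn1 was also not called without the narrow arrays, where it stayed at 0.62 (limma, adjusted p = 0.0545). Cldn5, a claudin of endothelium, was at 0.55 ± 0.15 and lost its call without the narrow arrays (0.31) and without the squamous-rich arrays (0.54). Cgn, a scaffold of tight junctions, was at -0.28 ± 0.092. Its call was lost without any 1 of Control replicates 1, 4 or 7 or siTNF-OMe-P replicates 1, 3, 6 or 8 (-0.25 to -0.27), without the squamous-rich arrays (-0.34), without the batch terms (-0.28) or with hybridization batch alone (-0.27), with only both groups in the fit (-0.28) and with median centring (-0.28).

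Genes of dividing cells fell. The promoters of many cell cycle genes carry the cell cycle homology region, written here as TTTGAA and searched on both strands of the same 200 bases. It was found in 8 of the 24 genes with a promoter in the table, 33.3%, against 12.5% of all promoters and 14.4% of all genes. The promoters of Ccnb2, Cdc20 and Mki67 are shown for the place of the match, in capitals, which is 167, 18 and 116 bases before the start, with a further match in Mki67.
Ccnb2 (chr9:70421555-70421754, minus strand): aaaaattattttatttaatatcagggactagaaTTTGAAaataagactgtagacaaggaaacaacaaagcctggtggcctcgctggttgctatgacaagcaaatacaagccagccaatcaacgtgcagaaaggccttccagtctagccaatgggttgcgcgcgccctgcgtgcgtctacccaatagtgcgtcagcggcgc
Cdc20 (chr4:118437344-118437543, minus strand): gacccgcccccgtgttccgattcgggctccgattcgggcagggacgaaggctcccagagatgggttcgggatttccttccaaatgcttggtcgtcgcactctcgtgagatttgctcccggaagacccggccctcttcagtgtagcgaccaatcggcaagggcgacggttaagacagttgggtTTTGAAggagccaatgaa
Mki67 (chr7:135716380-135716579, minus strand): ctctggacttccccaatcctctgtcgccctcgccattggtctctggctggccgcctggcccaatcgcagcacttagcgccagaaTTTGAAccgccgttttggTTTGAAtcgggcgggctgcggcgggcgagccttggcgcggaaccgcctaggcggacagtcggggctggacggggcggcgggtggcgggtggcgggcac

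Of 29 cell cycle genes 25 fell and 0 rose (limma; median -0.57), and 27 fell without the narrow arrays. Ccnb2, a cyclin of mitosis, was at 8.01, 8.21 and 8.51 in siTNF-OMe-P and 8.63, 9.33 and 10.1 in Control (-1.18 ± 0.14). Nusap1, a spindle protein, was at 6.97, 7.07 and 7.25 against 7.47, 8.11 and 8.79 (-1.03 ± 0.13). Bub1b, a spindle checkpoint kinase, was at 7.27, 7.47 and 7.60 against 7.94, 8.04 and 8.56 (-0.66 ± 0.077). These 3 did not overlap, while over the list 5 of 29 genes did not, beside 4.06% of all genes in either direction and 0.943% downward. Mki67, the proliferation antigen, differed by -1.23 ± 0.17, the topoisomerase Top2a by -1.36 ± 0.21, and Cdc20, an activator of mitotic exit, by -0.83 ± 0.11. Replicate 7, with an MPO activity of 0.082 U/mg, had the lowest level of the list, at -0.83 from the Control mean.

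Of 21 crypt stem cell and Wnt genes 9 fell and 4 rose (limma; median -0.22, and -0.44 without the narrow arrays). Axin2, a direct target of Wnt signals, was at 8.17, 8.28 and 8.60 in siTNF-OMe-P and 8.73, 9.22 and 9.92 in Control (-1.01 ± 0.10). The stem cell factor Ascl2 fell by 0.54 ± 0.067 on the log2 scale, Hopx, a marker of reserve stem cells, by 0.58 ± 0.071, and Lgr5, the receptor that marks crypt base stem cells, by 0.44 ± 0.081. Rspo3, a stromal ligand that strengthens Wnt signals, was at 9.82, 10.2 and 10.8 against 8.77, 9.03 and 9.41 (1.19 ± 0.12), with no overlap. Nkd1, an antagonist of the pathway, rose by 0.80 ± 0.11 and Wnt5a, a ligand of wound stroma, by 0.69 ± 0.16. Wnt5a was at 0.40 without the narrow arrays and 0.64 without the squamous-rich arrays, and was called in neither case. Without the squamous-rich arrays the list had 2 higher and 7 lower.

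Wound healing and epithelial repair genes rose in 13 of 20 cases and fell in 0 (limma; median 0.47), with 11 higher and a median of 0.23 without the narrow arrays, and 9 higher without the squamous-rich arrays. Ereg, a ligand of the EGF receptor, was at 7.42, 9.15 and 10.7 in siTNF-OMe-P and 6.91, 7.10 and 7.34 in Control (2.03 ± 0.40). Plaur, the urokinase receptor, was at 9.36, 9.86 and 10.3 against 8.35, 8.64 and 8.88 (1.23 ± 0.18). The groups did not overlap for either gene. Anxa1, a phospholipid-binding protein that limits leukocyte entry, rose by 1.03 ± 0.17 (0.61 without the narrow arrays), and Anxa2, which holds plasmin at the cell surface, by 0.56 ± 0.095.

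Genes of the support tissue rose. Of 25 matrix and matrix protease genes 19 rose and 0 fell (limma; median 0.72), with 17 higher and a median of 0.46 without the narrow arrays, and 14 higher without the squamous-rich arrays. Thbs1, a matrix glycoprotein that activates TGF-beta, was at 10.6, 11.9 and 12.4 in siTNF-OMe-P and 9.26, 9.76 and 10.0 in Control (2.04 ± 0.27). Timp2, an inhibitor of metalloproteinases, rose by 0.78 ± 0.11, and Pdgfra, a receptor of fibroblasts, by 0.82 ± 0.12, both with no overlap. Endothelial genes rose in 14 of 18 cases (limma; median 0.71), with Pecam1, an adhesion protein of vessels, at 0.81 ± 0.087, Esam, a junction protein, at 0.85 ± 0.10, and the angiopoietin receptor Tek at 0.80 ± 0.11. Smooth muscle genes rose in 15 of 16 cases and fell in 1, Smpx (limma; median 0.56). Cald1, which binds actin, was at 0.96 ± 0.13 (0.60 without the narrow arrays), the contractile regulators Cnn1 and Tpm2 at 0.74 ± 0.093 and 0.54 ± 0.076, and Myh11, the heavy chain that defines smooth muscle, at 0.42 ± 0.095.

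Neuron and glia genes rose in 13 of 15 cases and fell in 0 (limma; median 0.53). Vip, a neuropeptide that relaxes the gut wall, was at 9.74, 10.1 and 10.7 in siTNF-OMe-P and 8.09, 9.15 and 9.57 in Control (1.10 ± 0.18), with no overlap, and differed by 0.67 without the narrow arrays. Prph, a filament of peripheral neurons, rose by 0.79 ± 0.12 (0.47 without the narrow arrays) and Snap25, a protein of synaptic vesicle release, by 0.53 ± 0.073. These lists of muscle, nerve and vessel moved beside shorter colons and beside Epcam (-0.044 ± 0.049) and Krt8 (0.0083 ± 0.048), epithelial markers that were not called, and the part of tissue makeup in these results was not tested. Adipocyte genes had 1 higher and 1 lower of 13 (limma; median 0.31), beside 11.7% and 6.75% of all genes. Without the narrow arrays 3 were higher, a share near the 25.2% of all genes. The called genes were the fatty acid carrier Fabp4, at 0.70 ± 0.16, and Pck1, an enzyme of glucose synthesis also found in epithelium, at -1.28 ± 0.27. Adipoq, which defines fat cells, was at 7.89 to 10.2 and 7.17 to 10.2 (0.64 ± 0.50; limma, adjusted p = 0.537). The 2 measured red blood cell genes were not called, and both were higher without the narrow arrays, beside 25.2% of all genes.

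Complement and coagulation genes rose in 12 of 18 cases and fell in 0 (limma; median 0.56). C3ar1 and C5ar1, the myeloid receptors of complement fragments, rose by 0.95 ± 0.094 and 1.14 ± 0.13, and C4b, a component of the classical cascade, by 0.99 ± 0.14, each with no overlap. Lipid mediator genes had 6 higher and 1 lower of 15 by limma, with a median of 0.026. Without the narrow arrays 9 were higher and 4 lower (median 0.21), beside 25.2% and 25.1% of all genes. Ptgs2, the inducible cyclooxygenase, was at 8.35, 10.0 and 10.9 in siTNF-OMe-P and 7.75, 8.05 and 8.68 in Control (1.7 ± 0.39). Alox5ap, needed for leukotriene synthesis, rose by 1.33 ± 0.17, Pla2g7, which breaks down platelet activating factor, by 1.16 ± 0.20 and Ptgis, prostacyclin synthase, by 0.59 ± 0.083. Hpgd, which inactivates prostaglandins, was at -0.67 ± 0.20 and lost its call without siTNF-OMe-P replicate 8 (-0.50), without the squamous-rich arrays (-0.64) and when only both groups entered the fit (-0.66).

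Endoplasmic reticulum stress genes had 8 higher and 1 lower of 23 by limma, with a median of 0.33. Without the narrow arrays 7 were higher and 3 lower (median 0.044), beside 25.2% and 25.1% of all genes. Hspa5, the main chaperone of that compartment, rose by 0.62 ± 0.098 with no overlap, and the chaperone Calr by 0.40 ± 0.072. Hypoxia and glycolysis genes had 8 higher and 0 lower of 18 by limma, with a median of 0.23. Without the narrow arrays 2 were higher and 5 lower (median 0.014), beside 25.2% and 25.1% of all genes. Without the squamous-rich arrays 4 were higher, beside 7.31% of all genes. Pfkfb3, which speeds glycolysis, rose by 1.23 ± 0.21 with no overlap. P4ha1, a collagen hydroxylase, rose by 0.67 ± 0.14 (0.39 without the narrow arrays), and Hk2, a hexokinase, by 1.11 ± 0.25, with Hk2 at 0.68 and not called without the narrow arrays.

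The squamous epithelium genes rose in 8 of 22 cases and fell in 0 (limma; median 0.83). Their mean level was 7.44 to 10.2 in siTNF-OMe-P and 7.13 to 7.71 in Control, and only replicates 1, 2 and 5, at 10.2, 9.57 and 9.23, were above all Control arrays. Krt5, the keratin of basal squamous cells, was at 12.3, 12.2, 7.87, 9.84, 11.7, 7.73, 9.51 and 7.25 in siTNF-OMe-P replicates 1 to 8, against 6.96 to 7.39 in Control (2.67 ± 0.67). Its partner Krt14 was at 12.1, 12.3, 8.41, 9.49, 11.2, 8.49, 9.32 and 8.08, against 7.97 to 8.26 (1.81 ± 0.53). The same 3 arrays were highest for both, followed by replicates 4 and 7. The basal markers Trp63 (0.086 ± 0.16) and Krt15 (0.53 ± 0.28) were not called. Krt13, a keratin of internal squamous linings, was at 2.00 ± 0.58 and lost its call without replicate 1 (1.68). The epithelial cell cycle inhibitor Sfn, which is not confined to squamous cells, rose by 0.80 ± 0.16. The list had 2 higher without replicate 1, 5 without replicate 2, 4 without replicate 5, and 5 without any 1 of Control replicates 1, 2 and 3. Without the squamous-rich arrays the median was 0.033 and 4 genes were called, with Krt5 at 1.32 and Krt13 at 0.66. Those arrays were picked by the mean of this same list, so lower values of the list were built into that fit. Of the 118 genes named by rule, 11 lost their call in that fit, where 5 siTNF-OMe-P arrays remained, and the part of squamous tissue in the other results was not tested.

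The animals were next set side by side. Replicate 3 had the highest levels of the monocyte and macrophage list (1.66 above the Control mean), the neutrophil list (1.78) and the matrix list (1.36). Replicate 7 had the lowest, at 0.91, 0.35 and 0.24, and it also had the longest colon of the group, 7.1, and the lowest ratio, 2.127 mg/mm. Replicates 5 and 6 had MPO activities of 0.031 and 0.056 U/mg, yet neutrophil levels of 1.04 and 0.65, which were not the lowest of the group. S100a8 was at 10.1 and 9.15 in these 2 animals and at 7.66 in replicate 7, against a highest Control value of 7.73. The interferon list ran from 0.29 in replicate 2 to 0.94 in replicate 1, and the monocyte and macrophage, chemokine, interferon, endothelial, matrix, neuron, enteroendocrine, acute phase and complement lists were above all Control arrays in 8 of 8 treated arrays.

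**Figure D4:**
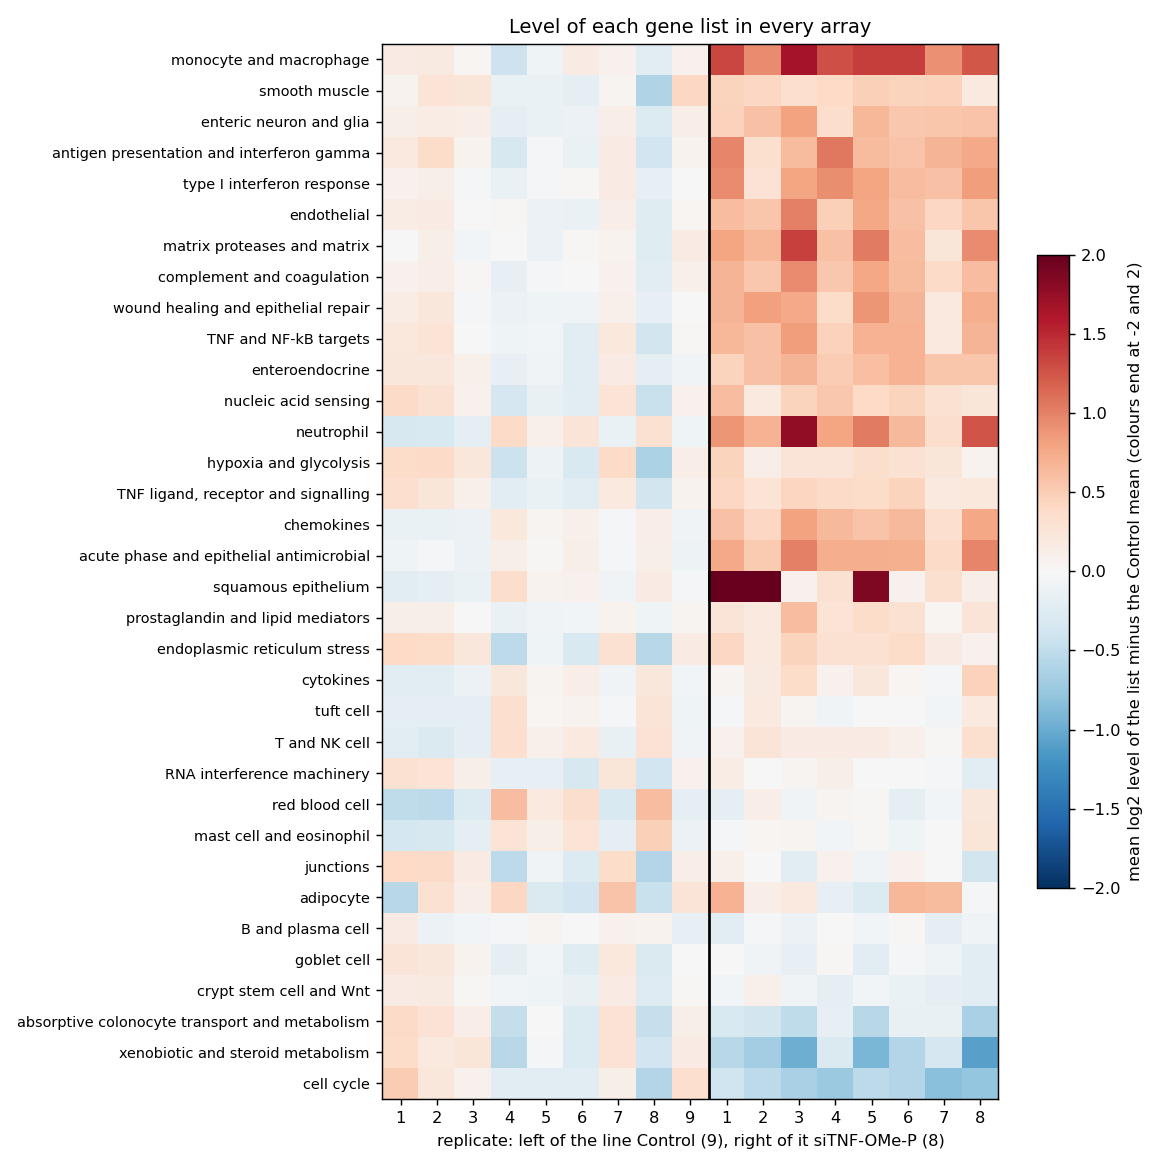
Mean log2 level of each of 34 gene lists in every array, minus the Control mean, with Control replicates 1 to 9 left of the line and siTNF-OMe-P replicates 1 to 8 right of it. Replicates 1, 2 and 5 stand apart in the squamous row (2.85, 2.22 and 1.87, where values above 2 take the end colour), and replicate 7 is the palest in the neutrophil row (0.35).

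The last question was whether siTNF-OMe-P differed from the other siRNAs. The unmodified siTNF, and siTNF-OMe without the propanediol, differ from it in the labelled chemistry. The label of the scrambled siRNA names no chemistry, so in that comparison sequence and chemistry cannot be told apart. The siRNA sequences are not given in the sources used here. In the same limma fit, 0 of 28853 probe sets (0%) were called against each of the 3 groups. At an unadjusted p under 0.05 there were 836 against scrambled (7 arrays), 1002 against siTNF (6 arrays) and 74 against siTNF-OMe (6 arrays). With no difference at any probe set, a share of 0.05 of the 28853 would be expected to pass, more than each of these 3 counts. These counts depended on the fit. They were 2825, 2139 and 454 with only the compared groups in the fit, and 2828, 4978 and 583 without the narrow arrays. In these fits the counts against scrambled and siTNF were above a share of 0.05, and those against siTNF-OMe stayed below it. The absence of calls therefore does not show that the siRNA groups were alike. Against scrambled, median centring called 1, the SD of the array as a covariate 8 and array weights 198, and against siTNF quantile normalization called 4 and the SD covariate 8. No setting called any probe set against siTNF-OMe.

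Tnf was at a median of 8.70 in siTNF-OMe-P, 8.67 in scrambled, 9.17 in siTNF and 8.80 in siTNF-OMe. The difference was -0.23 from scrambled (95% interval -0.54 to 0.085), -0.41 from siTNF (-0.74 to -0.091) and -0.10 from siTNF-OMe (-0.42 to 0.22). The interval against siTNF lies below 0 for Tnf taken alone (limma, unadjusted p = 0.0137), and over all probe sets the adjusted p was 0.974. A Tnf level lower than in scrambled by more than 0.54 lies outside the 95% interval.

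The direct differences of most of the 118 named genes from the other siRNA groups were small. They were within 0.5 in 110 cases against scrambled, 113 against siTNF and 117 against siTNF-OMe, and the whole 95% interval lay within 1 on either side of 0 for 105, 108 and 111 genes. Some named genes, among them Klrd1, Dclk1 and Cgn, differed from Control itself by less than 0.5. For such genes these limits do not show closeness. Krt5 was 2.42 above scrambled (0.96 to 3.88) and 1.73 above siTNF (0.21 to 3.25), but -0.030 from siTNF-OMe (-1.55 to 1.49). The squamous list was above 8 in 0 of 7 scrambled, 1 of 6 siTNF and 4 of 6 siTNF-OMe arrays. Rnf186 differed by -0.94 from scrambled (-1.56 to -0.33) and Retnlb by -1.04 from siTNF (-1.85 to -0.22). The smallest p against each group belonged to Zdbf2 against scrambled (0.24, 0.13 to 0.36), Cstdc6, a cystatin-like gene, against siTNF (0.42, 0.22 to 0.62), and Zdbf2 again against siTNF-OMe (0.19, 0.065 to 0.31). The next were Mir380 (0.22, 0.11 to 0.33) and Tmem267 (0.52, 0.25 to 0.80) against scrambled, Cpn2 (-0.37, -0.56 to -0.19) and Pla2g4f (-0.37, -0.55 to -0.19) against siTNF, and Rpph1 (0.18, 0.051 to 0.31) and Hoxa2 (-0.12, -0.20 to -0.028) against siTNF-OMe, none of them called.

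**Figure D5:**
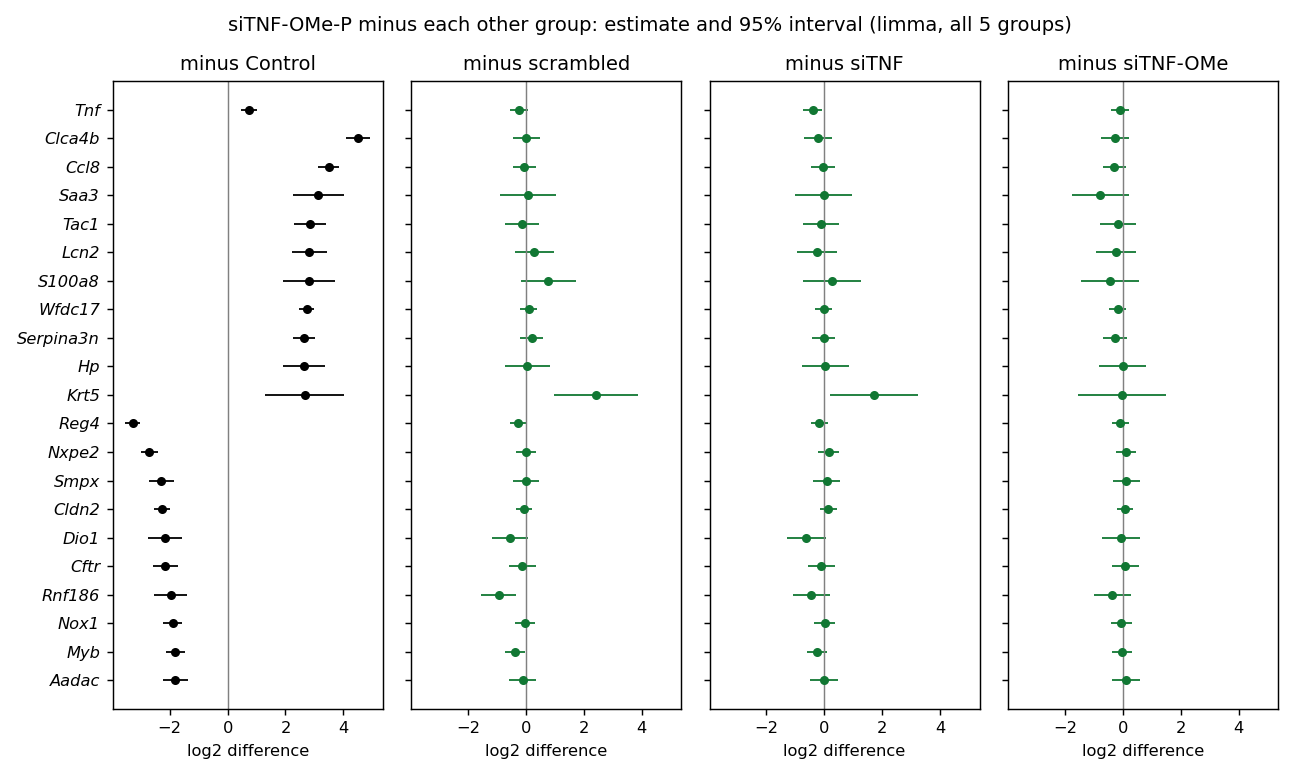
Log2 difference and 95% interval of siTNF-OMe-P minus Control (left panel) and minus scrambled, siTNF and siTNF-OMe (other panels) for Tnf and the 20 genes with the largest differences from Control. Clca4b is 4.51 above Control and at 0.0088, -0.21 and -0.27 from the 3 siRNA groups, while Krt5 is 2.42 above scrambled with a wide interval.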

How the data were processed

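RNA of distal colon was prepared with an RNeasy kit, put through whole transcriptome amplification and hybridized to Affymetrix arrays, per the labels. The authors deposited log2 probe set intensities of 36 arrays (4.95 to 14.1), made with Partek and RMA per the submitters' processing notes. Versions, and whether batch effects were removed before deposit, are not given in the sources used here. Amplification and hybridization batches are the labels' day groups, numbered 1 to 3 and 1 to 2, and each holds both groups (Control 2, 4 and 3 arrays, siTNF-OMe-P 2, 4 and 2, over amplification batches).

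limma 3.58.1 (R 4.3.3) was fitted to all 28853 probe sets and all 5 groups with both batches as terms, 28 residual degrees of freedom and a mean-variance trend, with Benjamini-Hochberg adjustment. The batch terms called 0 probe sets each. The median SE was 0.104, and the number of arrays limits the precision. Probe sets were named through the platform annotation: 21789 have 1 gene, 1621 several and 5443 none. For a gene with several probe sets, the one with the highest mean stands for it. Of the 19938 genes, 19919 were found in the RefSeq table, which gave the promoters. Colon measures were tested with exact permutation tests over all regroupings, computed with numpy 2.4.6.

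The members and lists were chosen with earlier results of these data known. Genes were named by rule: Tnf, the 10 called genes highest and the 10 lowest, up to 3 called members each way of every list by smallest p, and the 3 smallest p against each other group. Other gene names are marked as chosen after their values were seen, except tissue markers and the genes whose promoters are shown. On simulated data for this comparison over 28853 probe sets, 66.7%, 94.5% and 100% of changes of 0.5, 1 and 2 log2 units were recovered, with 5.61% false calls. The simulation changed 200 probe sets and gave each probe set independent normal noise. It held no batch effects and no narrow or squamous-rich arrays, so these rates need not hold for the real arrays. Alternatives covered the batch terms, the arrays that entered, normalization, array weights, dim probe sets and a replicate block.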

Additional observations from a re-analysis of the deposited data

Results flagged for a closer look

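In 17 of 244 groups of values (6.97%), 1 animal lay far from the others of its group, where chance flags about 1 in 20. Control replicate 4, a narrow array, stood apart for Tnf (8.67, next 8.10), Wfdc17 (7.87, next 8.62), Krt5 (7.39, next 7.14) and Clca4a (9.50, next 10.3). Control replicate 1 was high for Cr2 (7.82), Control replicate 2 for Iigp1 (9.68), and Control replicate 8, a narrow array, was low for Cldn5 (7.27). Control replicate 6 had the heaviest colon (200 mg, next 172 mg) and the highest ratio of its group (2.47 mg/mm, next 2.21 mg/mm).

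Among siTNF-OMe-P arrays, replicate 2, narrow and rich in squamous genes, was low for Zbp1 (9.46) and Rtp4 (10.1) and high for Ascl2 (6.88). Replicate 8, also narrow, was high for Nox1 (7.76) and low for Cldn5 (8.19). Replicate 1 was high for Smpx (7.43), replicate 3 for Pecam1 (11), and replicate 7 was low for Tgfb1 (8.51).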

How the results depend on the processing

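The count of 4596 called probe sets (limma) was 2806 with only both groups in the fit, 13579 with array weights, 9400 with the array SD as a covariate, 13845 without arrays of SD under 1.7 and 2637 without the squamous-rich arrays. It was 1411 (629 higher, 782 lower) and 2215 (1561 and 654) within hybridization batches 1 and 2, 8804, 3018 and 58 within amplification batches 1, 2 and 3, and 1945 and 423 with a minimum of 0.5 and 1 log2 unit. Of the 4596, 4356 kept their direction within amplification batch 1, which holds 2 arrays of each group. Against scrambled the count of 0 became 1 with median centring, 198 with array weights and 8 with the SD covariate, and against siTNF 4 with quantile normalization and 8 with the SD covariate. Tnf missed the threshold within hybridization batch 1 (0.71) and amplification batches 2 (0.62) and 3 (0.74), and MPO activity without narrow arrays (0.261). Within hybridization batch 1, MPO activity, length and ratio differed by 0.392, -1.27 and 0.328, but its 35 regroupings allow no p under 0.0286 before adjustment, so these 3 values say nothing of stability. The causes of these changes were not tested, and neither was the part of the fewer arrays in some of these fits. Leaving out 1 array at a time gave 3987 to 4962 called probe sets, Tnf differences of 0.68 to 0.81, MPO activity 0.237 to 0.349, length -1.42 to -1.26, weight -5.97 to 0.5 and ratio 0.345 to 0.443. No named gene changed direction under any setting run. Named genes that lost their call in other fits numbered 38 and 16 within hybridization batches 1 and 2, and 30, 15 and 100 within amplification batches 1, 2 and 3.

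Replicate numbers are shared between the groups but do not pair the animals: deviations of same-numbered arrays correlated from -0.620 to 0.868, and 1 of 8 numbers correlated best with its own. With the replicate block 4693 probe sets were called (2856 higher, 1837 lower), and Tnf differed by 0.70.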
